A study of Macaca fascicularis with 6 samples.

Results

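Transcripts that long reads place in introns, between genes or on the opposite strand of a gene were described in wild-type cynomolgus monkeys (Macaca fascicularis), in epithelial cells of the cornea 1 and 3 days after it was injured. The members were the isoform-table rows marked genic, genicIntron, intergenic or antisense with at least 5 counts summed over 3 libraries, in cell barcodes that the sample's gene table also held. The rule kept 19585 of 41448 rows: 1214 genic, 11506 genicIntron, 6131 intergenic and 734 antisense. The 3 libraries were day 3 replicate 1, day 3 replicate 2 and day 1 replicate 2. Gene tables of all 6 samples, 2 each at day 3, at day 1 and uninjured (day 0), entered the comparison of genes. Cells were passed through a strainer, captured with the 10x Genomics system, and full-length cDNA was read with HIT-scISOseq, a long-read method for whole transcripts of single cells. Whether the replicates were separate animals is not stated, so the p-values reflect the variation among these libraries, part or all of which may be technical. The isoform tables of the uninjured samples and of day 1 replicate 1 name their rows in another way and were not used here.

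A gene's introns are copied into RNA with its exons and are removed by splicing, mostly in the nucleus, before the mature RNA is exported. In the usual naming of long-read transcripts, a genic transcript covers both exon and intron of an annotated gene, and a genic intron transcript lies wholly within an intron. An intergenic transcript lies outside annotated genes, and an antisense transcript runs against an annotated gene. Transcripts of these kinds include unspliced precursors, noncoding RNAs, unannotated genes and priming of cDNA at internal runs of A, so that the classes are defined by position and not by function. How the annotation was built decides what is called intergenic, and the annotation and the strand setting used here are not given in the sources. Antisense reads and reads of the gene itself therefore cannot be told apart in these tables.

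The gene-table barcodes also found in the isoform tables held 2166030 and 2007273 isoform counts at day 3 and 2896795 at day 1. They were 701 of 1096 (64.0%) and 679 of 1068 barcodes (63.6%) at day 3, and 1234 of 1267 (97.4%) at day 1. The day 3 barcodes that were absent from the isoform tables were the deeper ones, with medians of 5523 and 5383 gene counts, against 3649 and 3495 in those present. At day 1 the medians were 2911 in absent and 2931 in present barcodes. The isoform tables of 2 libraries shared between 60 and 173 barcodes, of which 0 were in both gene tables. Among the barcodes used, KRT12, a keratin of corneal epithelium, stood at 8271 and 8380 CPM (counts scaled to the library's total) at day 3 and 14153 at day 1, and PAX6, a regulator of eye development, at 255 and 262 against 260. KRT14 and KRT5, keratins of basal epithelial cells, were higher at day 3, KRT14 at 18360 and 15787 CPM against 1300 at day 1, and KRT5 at 12045 and 11758 against 5160. The 7 listed corneal epithelium genes summed to 49283 and 45891 CPM at day 3 and 33514 at day 1, and 4 of them were higher and 2 lower in edgeR's test of the gene tables. In that test 30.5% of all 12294 genes were higher and 28.8% lower, the shares to set beside the calls of each list in this paragraph. PTPRC, which marks leukocytes, was at 0 and 1.24 CPM at day 3 and 0.279 at day 1. Of 6 listed immune genes 5 were in the gene tables, with sums of 166 and 144 CPM at day 3 and 197 at day 1. Of the 3 tested, 0 were higher and 2 lower at day 3. FN1 (675 and 678 CPM at day 3, 0 at day 1) and VIM (641 and 657 against 19.8), which are not among the listed cell type markers, were higher in the day 3 libraries. LUM, a listed keratocyte and fibroblast gene, was also higher (25.6 and 23.9 against 0.558), while KERA, which keratocytes express, was at 1.13 and 0.825 against 0.836 CPM. The 7 listed keratocyte and fibroblast genes summed to 1991 and 2003 CPM at day 3 and 2186 at day 1; 5 were tested, and 4 of these were higher and 1 lower at day 3. Of 8 listed conjunctival and goblet cell genes 4 were in the gene tables, with sums of 5282 and 5734 CPM at day 3 and 2452 at day 1, and 3 were higher and 0 lower. The day 3 barcodes absent from the isoform tables differed in these genes too. There FN1 stood at 270 and 131 CPM, VIM at 501 and 398, and KRT12 at 10393 and 10416. KRT3, another corneal keratin, stood at 2382 and 2496 CPM in absent day 3 barcodes, against 1664 and 1371 in those used. The part of this difference in the day 3 changes was not tested. Fewer cells of a type and less RNA per cell cannot be told apart in summed counts.

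The 4 classes together held 15.6% and 16.3% of isoform counts at day 3 (95% Clopper-Pearson intervals 15.5 to 15.6% and 16.3 to 16.4%), against 18.3% at day 1 (18.2 to 18.3%). The intervals cover counting error only. Intergenic rows were the largest class, with 8.91 ± 0.274% of counts at day 3 (SD, n = 2) and 9.74% at day 1. GenicIntron rows, the most numerous, held 4.23 ± 0.184% at day 3 and 5.24% at day 1. Genic rows held 1.84 ± 0.0633% at day 3 and 2.12% at day 1, and antisense rows 0.955 ± 0.0164% against 1.17%. In each class both day 3 libraries lay below the day 1 library, but with 2 libraries against 1 no test of the difference was made. Every barcode carried counts of the classes at day 3 and at day 1, with a median of 483 and 490 counts per barcode at day 3 and 422.5 at day 1.

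The size of this difference depended on the depth of the barcodes. In barcodes with under 3500 gene counts, a limit chosen after seeing the data, where 309 and 341 barcodes were used at day 3 and 803 at day 1, the 4 classes together held 19.2 ± 0.145% at day 3 (SD, n = 2) and 19.3% at day 1. In the same barcodes the intergenic share was higher at day 3, at 11.1 ± 0.0260% against 10.5%, the opposite of the order over all barcodes. The genicIntron share remained lower at day 3, at 4.91 ± 0.143% against 5.47%, as did the antisense share, at 1.01 ± 0.0133% against 1.16%. The genic shares were 2.12 ± 0.0144% and 2.15%. In barcodes with 5000 or more gene counts the 4 classes held 11.99% and 12.3% at day 3, against 16.9% at day 1. Below 2000 gene counts they held 22.8% and 21.9% at day 3, against 21.7% at day 1. Of the barcodes with 5000 or more gene counts, 132 of 406 and 70 of 325 in the day 3 gene tables were in the isoform tables, against 71 of 85 at day 1, and the part of their absence in these shares was not tested.

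**Figure D1:**
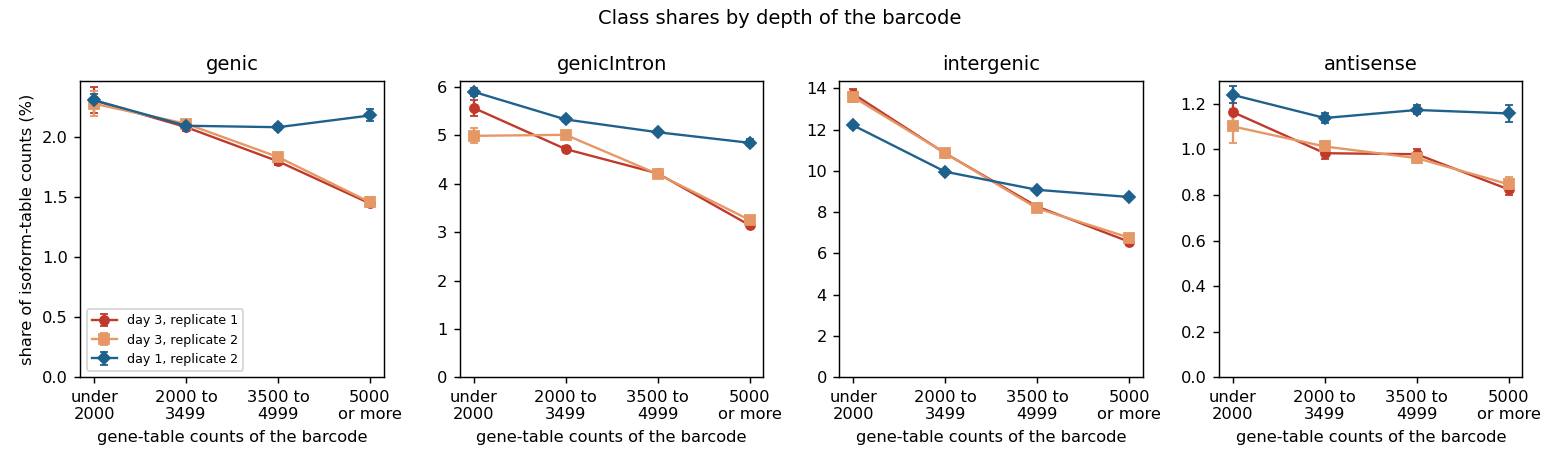
Share of isoform-table counts in each class (percent, vertical axes from 0) in 4 ranges of the barcode's gene-table counts, for both day 3 libraries and the day 1 library; bars are 95% Clopper-Pearson intervals of counting error. Genic shares were alike in the 3 libraries below 3500 counts and lower at day 3 above, intergenic shares were higher at day 3 below 3500 counts, and genicIntron and antisense shares were lower at day 3 in every range.

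The classes also varied with the mitochondrial share of a barcode's gene counts, which was 4.66% and 4.54% over all counts at day 3 and 7.17% at day 1. With mitochondrial rows left out, the 4 classes held 12.7%, 14.2% and 15.1% of counts in barcodes of low, middle and high mitochondrial share (tertiles) in day 3 replicate 1. The values were 13.5%, 15.3% and 15.4% in day 3 replicate 2 and 15.6%, 16.2% and 19.2% at day 1. The part of mitochondrial share in the difference between the days was not tested.

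Most members were rare. The median member had 16 counts over the 3 libraries, 57.6% had under 20, and 72 had over 1000. The count of 5 that chose the members was met exactly by 1387 of them, and 1557 rows of the 4 classes just missed it at 4. The 10 leading rows held 55.4% of all intergenic and 63.8% of all antisense counts, but 25.04% of genic and 8.69% of genicIntron counts. GenicIntron RNA was thus spread over many rows, and intergenic and antisense RNA was concentrated in a few.

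Row names gave a chromosome and a number, and 0 of 19585 members named a host gene. Of the intergenic counts, 26.6% fell on 4 rows of the mitochondrial chromosome and 30.0% on 269 rows of chromosome 14. The mitochondrial row transcript42457.MT had 26256 and 24320 counts at day 3 and 36253 at day 1, and transcript42461.MT had 24411 and 22197 against 39019. These 2 rows correlated with each other across barcodes (Pearson's r = 0.80 and 0.84 at day 3, 0.56 at day 1). The leading chromosome 14 row, transcript12099.14, had 19121 and 19206 counts at day 3 and 34399 at day 1 and was found in 98.0% and 98.8% of barcodes at day 3 and in 97.7% at day 1. It varied across barcodes with 3 other abundant rows of chromosome 14, with r between 0.63 and 0.76 at day 3 and between 0.49 and 0.63 at day 1. Another abundant row of that chromosome, transcript13639.14, with 2405 and 2224 counts at day 3 and 3767 at day 1, followed it less closely (r = 0.25 and 0.19 at day 3, 0.16 at day 1). These correlations are across barcodes of 1 library, which share its depth and cell makeup, and are descriptions. A list of 18 nuclear long noncoding RNAs, among them NEAT1 and MALAT1, had 0 members in the gene tables, and the files give no gene name to the chromosome 14 rows.

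The 3 largest intergenic rows did not pass the test between the days. In edgeR's quasi-likelihood test with Benjamini-Hochberg adjustment, transcript42457.MT had a log2 change, day 3 over day 1, of 0.10 ± 0.12 (SE; adjusted p = 0.531), transcript42461.MT of -0.12 ± 0.12 (adjusted p = 0.428) and transcript12099.14 of -0.22 ± 0.12 (adjusted p = 0.131). A row of chromosome 2, transcript12433.2, had 9141 and 8167 counts at day 3 and 16099 at day 1. The gene most like it was MT-CYTB, a mitochondrially encoded subunit of the respiratory chain, and its level followed the mitochondrial share of the barcode at r = 0.77 and 0.78 at day 3 and 0.72 at day 1. Its log2 change was -0.28 ± 0.12 (adjusted p = 0.0483), and DESeq2's Wald test gave an adjusted p of 0.0797.

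**Figure D2:**
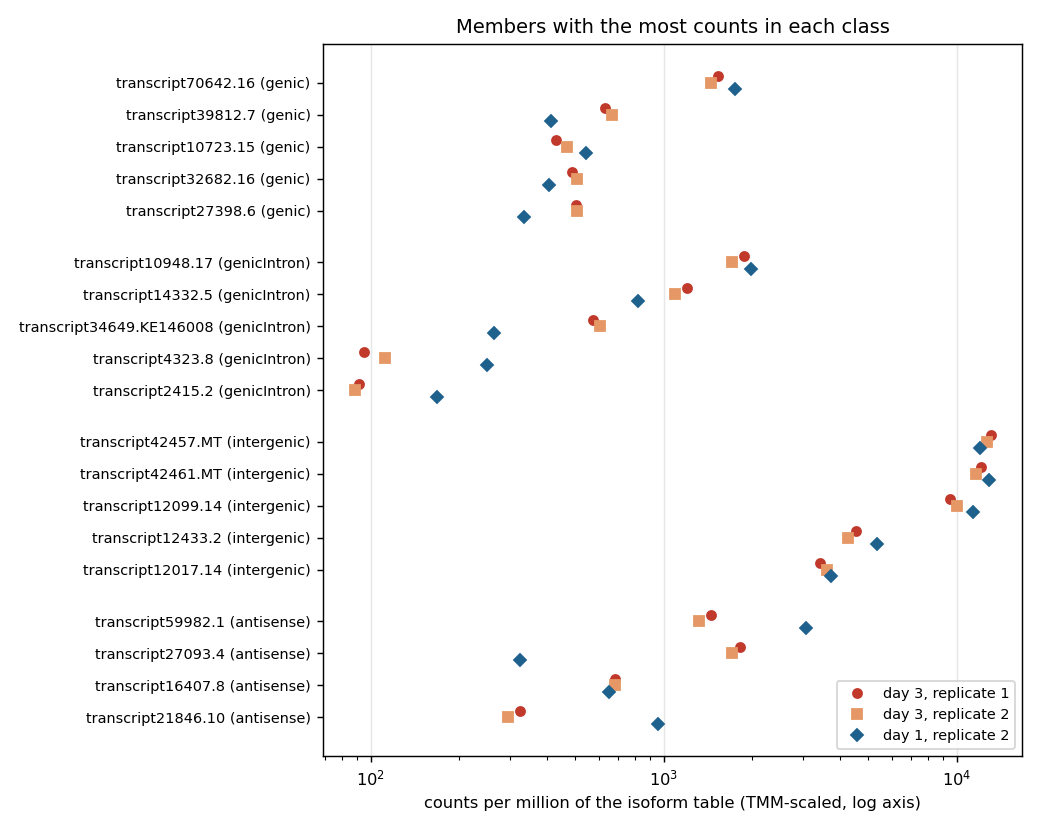
Level of the 5 genic, genicIntron and intergenic members and 4 antisense members with the most counts among those reported (CPM after scaling by trimmed mean of M-values, TMM, on a log axis, 1 point per library). The intergenic rows lie highest, and the antisense row transcript27093.4 stands farthest to the right at day 3 relative to day 1.

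Of the members, 7257 had enough counts to test (742 genic, 3752 genicIntron, 2479 intergenic and 284 antisense). Of these, 935 were higher and 1169 lower at day 3 past an adjusted p of 0.05, together 29.0%, against 38.3% of all 15921 isoform rows tested. GenicIntron rows more often fell (638) than rose (346) in edgeR, though DESeq2 called 27 lower and 31 higher; by edgeR 9.22% rose and 17.0% fell, against 20.1% and 18.2% of all rows. Among intergenic rows 429 rose and 353 fell, a balance that scaling to library totals alone turned to 343 and 458. Among genic rows 118 rose and 132 fell, and among antisense rows 42 rose and 46 fell. The median log2 change was -0.22 in genicIntron, 0.05 in intergenic, -0.0060 in genic and -0.14 in antisense rows, beside 0.02 over all rows tested. Scaling to totals alone moved the median of all rows to -0.14 and the members' calls to 738 higher and 1497 lower, so that 33.0% of them were higher, against 44.4% with TMM. These counts rest on the spread between the 2 day 3 libraries alone, which the lone day 1 library is assumed to share. The fit had 1 residual degree of freedom and took the spread of each row wholly from all rows together. The very small adjusted p-values of single rows, here and below, rest on that sharing and do not measure the spread of the row itself. DESeq2's Wald test called 150 members higher and 89 lower, where it called 5.63% of all rows higher and 3.51% lower. With no filter on low counts, all 19585 members were tested and 152 were higher and 177 lower, against 2.71% and 2.32% of all rows. An edgeR test against a 1.5-fold change called 529 higher and 595 lower, against 10.9% and 8.5% of all rows. In barcodes under 3500 gene counts 377 of 2808 members tested were higher and 443 lower, against 17.9% and 19.2% of all rows.

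**Figure D3:**
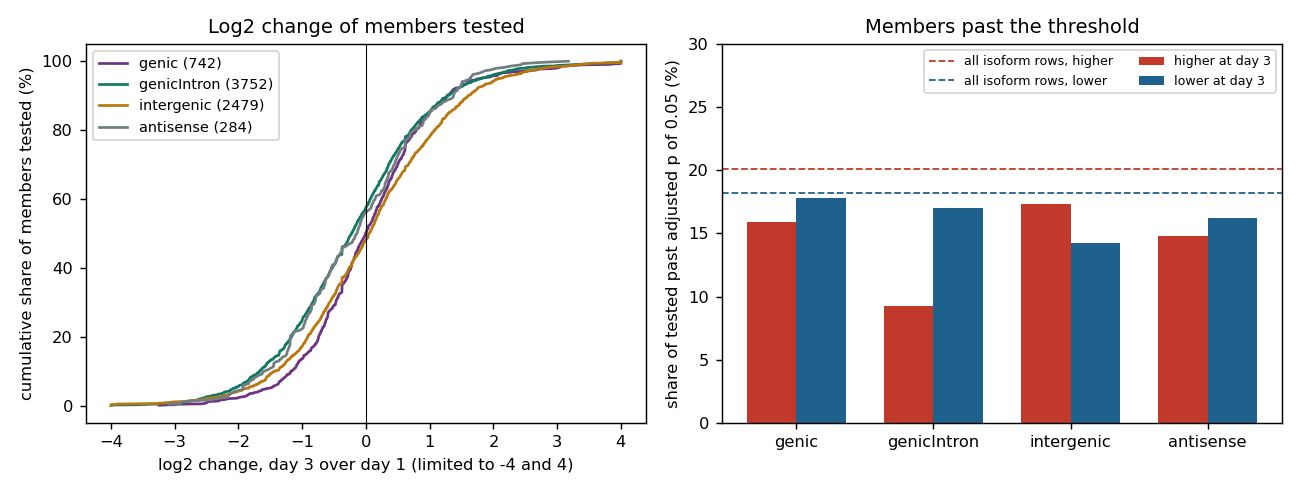
Left, cumulative share of tested members (percent) against the log2 change, day 3 over day 1, by class with the number tested. Right, share of tested members higher (red) or lower (blue) at day 3 past an adjusted p of 0.05, with dashed lines at 20.1% and 18.2% for all isoform rows; 9.22% of genicIntron rows rose and 17.0% fell.

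Since no member named its gene, each member was set beside the gene of the gene table whose level across barcodes was most like it, a choice made after the files were seen. Likeness was the lowest Pearson's r over the libraries in which the member had at least 30 counts, for 1191 members with at least 2 such libraries. With 2 day 3 libraries and 1 from day 1, a row abundant at day 3 alone could enter and a row abundant at day 1 alone could not, so that the balance of rises and falls among tracked rows is not read as a result. It reached 0.5 in 81 members: 63 genic, 15 antisense, 3 intergenic and 0 genicIntron. The chromosome of the gene was known for 50 of the 81 from RefSeq names, and in 48 it was the chromosome in the member's own name. For likeness between 0.3 and 0.5 the gene lay on the same chromosome in 59 of 67, between 0.1 and 0.3 in 131 of 429, and under 0.1 in 42 of 480. Chromosome was not used to find the gene. A gene found in this way is called the gene a row tracked, which does not name the row's host.

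**Figure D4:**
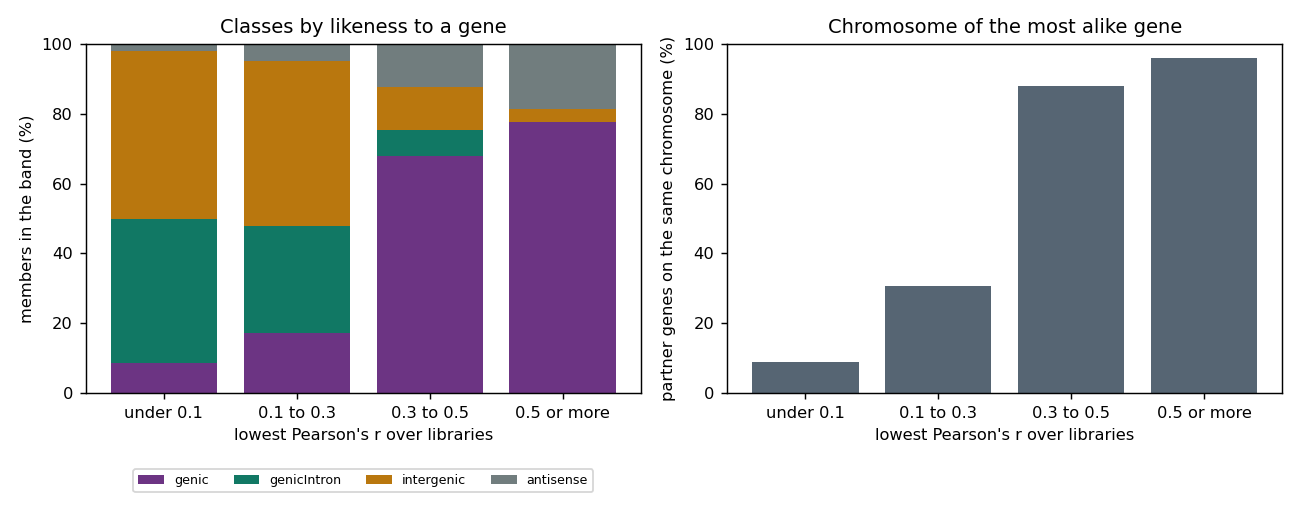
Left, classes of the members (percent of members in each band) by likeness to the most alike gene, the lowest Pearson's r over libraries. Right, share of those genes with a known chromosome that lie on the member's chromosome (percent): 48 of 50 at 0.5 or more and 42 of 480 under 0.1.

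Immediate early genes are switched on soon after a stimulus and before new protein is made. The genic row that tracked FOS (transcript39812.7), a subunit of the transcription factor AP-1, had 1267 and 1274 counts at day 3 and 1247 at day 1, in smaller day 3 libraries. Rows that name FOS had 2028 and 1738 counts at day 3, against 2933 at day 1. The genic row thus made up 38.5% and 42.3% of the counts of both at day 3 (95% Clopper-Pearson intervals 36.8 to 40.1% and 40.5 to 44.1%), against 29.8% at day 1 (28.4 to 31.2%). Across barcodes, the sum of the genic row and the FOS rows followed the FOS count of the gene table at r = 0.99 in day 3 replicate 1. The FOS rows alone reached 0.89 there, a gain that some other genes below did not show. The genic row rose by 0.65 ± 0.12 on the log2 scale (edgeR adjusted p = 8e-07; 0.000582 in DESeq2), while the FOS count of the gene table did not pass the test (0.05 ± 0.08, adjusted p = 0.571). Here and below, a row's change covers the barcodes of both tables in 3 libraries. A gene's change covers all gene-table barcodes of 6 samples, with the deeper day 3 barcodes that the isoform tables lack. In the gene tables FOS averaged 4266 ± 55.3 CPM in uninjured samples, 1340 ± 64.1 at day 1 and 1390 ± 16.5 at day 3 (SD, n = 2 each).

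DUSP1, a phosphatase that shuts off MAP kinases, had a genic row that rose by 0.59 ± 0.12 (edgeR adjusted p = 9.06e-06; 0.0519 with no filter on low counts), with 1011 and 967 counts at day 3 and 1008 at day 1. Its share of the counts of row and gene was 33.9% and 33.3% at day 3 and 28.8% at day 1. Rows that name DUSP1 had 1976 counts in day 3 replicate 1, beside the 1011 of the genic row and 2220 in the gene table. The share is therefore not shown to be a part of the gene's count. The genic row that tracked EGR1, a zinc finger factor, had 183 and 228 counts at day 3 and 235 at day 1, and its share was 26.3% and 30.4% against 21.8%. That row rose in edgeR by 0.43 ± 0.15 (adjusted p = 0.0166) but not in DESeq2 (adjusted p = 0.411). The genic row that tracked ATF3, a stress-induced factor, rose by 1.20 ± 0.17 (edgeR adjusted p = 1.02e-10) with 202 and 177 counts at day 3 and 127 at day 1, at a likeness of 0.37. KLF4, a factor of surface epithelium, was tracked by a row with 861 and 894 counts at day 3 and 1634 at day 1, whose decrease passed in edgeR (-0.27 ± 0.12, adjusted p = 0.0488) and not in DESeq2 (adjusted p = 0.261). Of 23 listed immediate early genes, 5 were tracked at 0.3 or more, and 4 of those rows rose and 1 fell by edgeR, where 20.1% of all isoform rows rose and 18.2% fell.

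The share in the genic or antisense row was followed for 15 members of likeness 0.5 or more whose gene also had at least 30 counts in rows of its own name in each library. In 12 of the 15 both day 3 libraries lay above the day 1 library, and in 3 they lay on both sides. For 5 of the 12 (FOS, DUSP1, PKP1, SLC38A2 and TIMP3) the counting intervals of both day 3 libraries lay clear of that of day 1. In barcodes under 3500 gene counts the share was above day 1 in 11 of 15, below in 1 and on both sides in 3. SLC38A2, an amino acid transporter, was tracked by a row that held 38.8% and 43.7% at day 3 and 30.4% at day 1. For TIMP3, an inhibitor of matrix metalloproteinases, the genic row held 41.7% and 39.6% against 21.8%. That row had 123 and 110 counts at day 3 and 22 at day 1. It met the limit of 30 counts at day 3 alone, so its place among the 12 and the 5 is not read as a result. ACTG1, a cytoplasmic actin and the gene tracked by the most abundant genic row, gave 19.04% and 19.8% at day 3 and 19.1% at day 1. Of 16 such pairs, counting a row not reported here, the sum followed the gene-table count more closely than the named rows alone in 12, in all 3 libraries. ACTG1, DUSP1, EFNA1 and TGIF1 were not among these. In day 3 replicate 1 the sum reached 0.97 for ACTG1 and the named rows alone 0.99, and for DUSP1 the values were 0.94 and 0.97. With 1 day 1 library, these shares carry no test. The counts of pairs above or below day 1 have no share over all rows beside them, and entry favoured rows abundant at day 3. Those counts are therefore not read as a result.

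**Figure D5:**
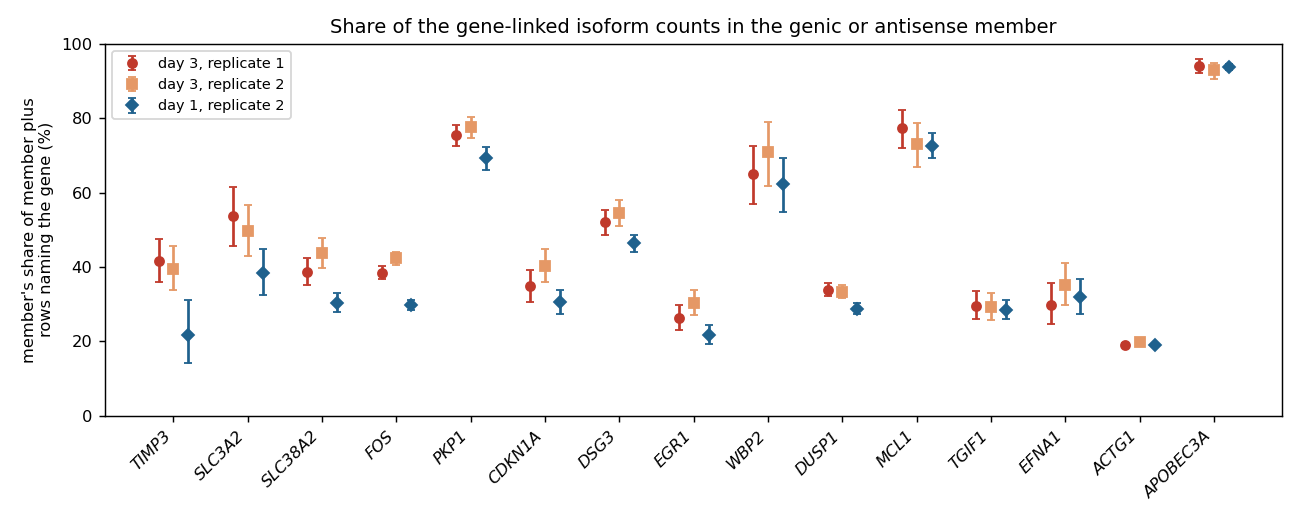
Share of the member (percent) in the sum of the member and the isoform rows that name the tracked gene, for 15 pairs ordered by the mean day 3 minus day 1 share; points are libraries and bars 95% Clopper-Pearson intervals. Most pairs, from TIMP3 to TGIF1, lie higher in both day 3 libraries, and EFNA1, ACTG1 and APOBEC3A have day 3 libraries on both sides of day 1.

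Of 18 listed genes of desmosomes and tight junctions, which join epithelial cells, 3 were tracked at a likeness of 0.3 or more, and by edgeR 1 of the rows rose and 2 fell, beside 20.1% and 18.2% of all isoform rows. PKP1, a plakophilin of desmosomes, was tracked by a genic row with 746 and 692 counts at day 3 and 638 at day 1, a rise of 0.79 ± 0.13 (edgeR adjusted p = 5.34e-09). That row held 75.4% and 77.6% of the counts of row and gene at day 3 and 69.3% at day 1. DSG3, a desmosomal cadherin, was tracked by a genic row with 451 and 446 counts at day 3 and 859 at day 1; its decrease passed in edgeR (-0.32 ± 0.12, adjusted p = 0.0288) and not in DESeq2 (adjusted p = 0.297). A genicIntron row of chromosome 2 that tracked CLDN1, a tight junction claudin, fell by 0.90 ± 0.14 (edgeR adjusted p = 1.44e-09), with 183 and 169 counts at day 3 and 506 at day 1, at a likeness of 0.32. ITGB4, the integrin of hemidesmosomes, was tracked by a genic row that rose by 1.33 ± 0.18 (edgeR adjusted p = 4.6e-12; 0.0561 with no filter on low counts), with 154 and 198 counts at day 3 and 108 at day 1, at a likeness of 0.33.

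Of 28 listed genes of migration, adhesion and matrix, 6 were tracked at 0.3 or more (COL17A1, FN1, ITGA6, ITGB4, TGFBI and VIM), and by edgeR 5 of the rows rose and 0 fell, beside 20.1% and 18.2% of all isoform rows. The FN1 and VIM rows, and the KRT17 row below, entered through the day 3 libraries alone. Their place among tracked rows that rose is therefore not read as a result. An intergenic row of chromosome 4 tracked TGFBI, a matrix protein whose gene lies on chromosome 6, at a likeness of 0.33. The row rose by 0.85 ± 0.14 (edgeR adjusted p = 5.34e-09), with 406 and 433 counts at day 3 and 357 at day 1, while TGFBI in the gene tables was lower at day 3 (-0.29 ± 0.07, edgeR adjusted p = 0.00593). The row that tracked FN1, the matrix protein fibronectin, had 174 and 162 counts at day 3 and 0 at day 1. Against a floor of 3 counts in the day 1 library it was at least 86.1-fold higher at day 3, and its likeness to FN1 was 0.74 over the 2 day 3 libraries. FN1 itself averaged 512 ± 56.7 CPM in the day 3 gene tables, against 0.388 ± 0.237 at day 1 and 0.199 ± 0.282 in uninjured samples (SD, n = 2 each). The row that tracked VIM, an intermediate filament protein of mesenchymal and migrating cells, had 74 and 101 counts at day 3 and 3 at day 1, a ratio of 44.9 (counting interval 15.1 to 219.6), at a likeness of 0.41. The row that tracked KRT17, a stress keratin, had 206 and 237 counts at day 3 and 17 at day 1, and rose by 4.31 ± 0.26 (edgeR adjusted p = 1.77e-60), at a likeness of 0.35 over the day 3 libraries. SPTBN1, a spectrin of the membrane skeleton, was tracked by a row that rose by 2.27 ± 0.22 (edgeR adjusted p = 4.07e-22), with 128 and 142 counts at day 3 and 43 at day 1. FN1 and VIM, whose levels are given above, are themselves genes these rows tracked. Among the marker values given above, LUM, KRT14 and the conjunctival and goblet sum were also higher in both day 3 libraries, and KERA was near 1 CPM at both days. The keratocyte and fibroblast sum was lower at day 3, though of its 5 genes tested 4 were higher and 1 lower. The median log2 change of those 5 genes in the gene tables was 4.29, so the sum does not stand for most of them. The part of these marker genes in the result was not tested.

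Other genic rows fell. The genic row that tracked CD55, which restrains complement, had 352 and 296 counts at day 3 and 1298 at day 1, a decrease of 1.38 ± 0.12 on the log2 scale (edgeR adjusted p = 3.53e-28). MCL1, an anti-apoptotic protein, was tracked by a genic row that fell by 0.77 ± 0.14 (edgeR adjusted p = 2.36e-07; 0.0515 with no filter on low counts), with 209 and 174 counts at day 3 and 503 at day 1. Of 39 listed splicing factors, HNRNPH1 and SRSF2 were tracked by genic rows. The HNRNPH1 row fell in edgeR (-0.60 ± 0.14, adjusted p = 0.000124) but not in DESeq2 (adjusted p = 0.123), and the SRSF2 row had a log2 change of -0.29 ± 0.14 (edgeR adjusted p = 0.0917).

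The antisense class was led by a few abundant rows. The largest, transcript59982.1 on chromosome 1, had 2916 and 2531 counts at day 3 and 9231 at day 1, and fell by 1.14 ± 0.11 (edgeR adjusted p = 2.14e-22). It made up 14.3% and 13.04% of antisense counts at day 3 and 27.3% at day 1. The gene most like it was SFN, the 14-3-3 protein of stratified epithelium, with a lowest r of 0.48. SFN averaged 3356 ± 230.5 CPM in the day 3 gene tables, against 9137 ± 484 at day 1 and 1400 ± 81.3 in uninjured samples (SD, n = 2 each). The antisense row that tracked APOBEC3A, a cytidine deaminase of innate immunity, had 650 and 561 counts at day 3 and 2881 at day 1, and fell by 1.63 ± 0.11 (edgeR adjusted p = 1.64e-43). The row that tracked HNRNPA0, an RNA-binding protein, had 233 and 205 counts at day 3 and 681 at day 1, close to the 260 and 214 gene-table counts at day 3 and 730 at day 1. It fell by 1.02 ± 0.13 (edgeR adjusted p = 2.86e-13), and 0 isoform rows named HNRNPA0.

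Another antisense row rose. The row transcript27093.4 had 3654 and 3270 counts at day 3 and 975 at day 1, and was found in 88.2% and 86.9% of barcodes at day 3 and in 40.8% at day 1. It rose 5.46-fold (2.45 ± 0.13 on the log2 scale, edgeR adjusted p = 7.77e-72) and made up 17.9% and 16.9% of antisense counts at day 3 and 2.88% at day 1. It tracked a gene that the files list only as ENSMFAG00000000455, at a lowest r of 0.84. That gene averaged 2297 ± 118 CPM in the day 3 gene tables, against 410 ± 65.3 at day 1 and 795 ± 42.3 in uninjured samples (SD, n = 2 each). The antisense row that tracked YWHAZ, another 14-3-3 protein, had 1365 and 1302 counts at day 3 and 1968 at day 1 and a log2 change of 0.06 ± 0.12 (edgeR adjusted p = 0.708).

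GenicIntron rows were seldom tied to a gene, with 0 of 379 compared at a likeness of 0.5 or more and 6 between 0.3 and 0.5. Intergenic rows were close to this, with 3 and 10 of 504. Few genicIntron members were abundant, 4 with 1000 or more counts against 42 intergenic, and the part of depth in the likeness was not tested. The most abundant genicIntron row, transcript10948.17, had 3772 and 3275 counts at day 3 and 5986 at day 1, with a log2 change of -0.15 ± 0.12. A row on an unplaced scaffold, transcript34649.KE146008, had 1149 and 1159 counts at day 3 and 797 at day 1, and rose by 1.16 ± 0.13 (edgeR adjusted p = 1.65e-18). The genicIntron row that tracked ALDH1A3, an enzyme of retinoic acid synthesis, rose by 2.02 ± 0.30 (edgeR adjusted p = 2.52e-10), with 54 and 63 counts at day 3 and 22 at day 1, at a likeness of 0.39. That row entered through the day 3 libraries alone, over which its likeness was taken. Its place among tracked rows that rose is therefore not read as a result. ALDH1A3 itself averaged 407 ± 0.889 CPM at day 3 and 347 ± 2.56 at day 1 in the gene tables (SD, n = 2 each) and did not pass the test (0.23 ± 0.09, edgeR adjusted p = 0.0531).

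Among intergenic rows that tracked a gene on their own chromosome, the row most like IGFBP5, which binds insulin-like growth factors, had 92 and 97 counts at day 3 and 18 at day 1. That row entered through the day 3 libraries alone, over which its likeness was 0.36. Its place among tracked rows that rose is therefore not read as a result. It rose 8.01-fold (3.00 ± 0.29, edgeR adjusted p = 1.82e-23). The row most like IGF2, one of those growth factors, had 217 and 205 counts at day 3 and 695 at day 1 and fell by 1.10 ± 0.13 (edgeR adjusted p = 2.39e-15), though in barcodes under 3500 gene counts its adjusted p was 0.297.

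The genes tracked at 0.5 or more were compared in the gene tables of all 6 samples. Of the 81 genes, 23 were higher and 35 lower at day 3 than at day 1 by edgeR, together 58, where 59.3% of all 12294 genes tested passed, 30.5% higher and 28.8% lower. Of their 81 members, 27 rose and 21 fell, beside 20.1% and 18.2% of all isoform rows, and they had met the limit of 30 counts in at least 2 libraries. In 40 pairs both the member and the gene passed, and all 40 had the same sign. At a likeness between 0.3 and 0.5 both passed in 42 pairs, of which 36 had the same sign. Of the other 6, TGFBI is given above, and the antisense row that tracked KRT3, a corneal keratin, rose by 0.35 (-0.17 in barcodes under 3500 gene counts), where KRT3 itself had a log2 change of -0.62. The rise of that antisense row did not pass in DESeq2 or with no filter on low counts. An intergenic row that also tracked KRT3, transcript24866.8, at a likeness of 0.32, fell with the gene, with a log2 change of -0.76. The member and its gene are read from the same cells and are not independent.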

How the data were processed

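Per the labels' protocols, cells were captured with the 10x Genomics system and HIT-scISOseq was used to read full-length cDNA; Cell Ranger is named in the submitters' processing notes without a role. The aligner, isoform caller, genome build and annotation are not given in the sources. The deposited tables hold whole-number counts per gene or isoform and barcode; no source says whether several reads of a molecule count once. Isoform counts were summed over barcodes found in both tables of a sample, and gene counts over all gene-table barcodes; no doublet caller was run and no barcode was removed as a doublet. Isoform rows of the 3 libraries, and genes of the 6 samples, were each fitted in edgeR 4.0.16 (R 4.3.3) with filterByExpr, TMM scaling, the quasi-likelihood F test and a Benjamini-Hochberg threshold of 0.05. DESeq2 1.42.0 was an alternative. CPM use TMM-scaled sizes, except for the marker genes, which use totals.

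The members, gene lists and rules were chosen with earlier results of these data known. Planned tests of a member's share of its host gene were replaced by the most alike gene, on log counts per 10000, since row names give no host; ranking host genes by members was left out too. Named rows were the 5 most abundant and the 5 highest and lowest changes per class, and rows tracking a listed gene; some were left out, and 1 antisense row is not reported here. SLC38A2, TIMP3, SPTBN1, CD55, MCL1, HNRNPA0, IGF2 and IGFBP5 were named after their values were seen. Chromosomes of genes came from RefSeq's T2T-MFA8v1.1 table, used for names only. The main fits did not pair samples by replicate number. In simulated counts of 14729 rows, the isoform fit recovered 44.9% of 2-fold and 82.7% of 4-fold changes and called 0.0206% of unchanged rows.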

Additional observations from a re-analysis of the deposited data

How the results depend on the processing

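With no filter on low counts, 152 members were higher and 177 lower at day 3; with DESeq2's Wald test 150 and 89; with a test against a 1.5-fold change 529 and 595; and in barcodes under 3500 gene counts, an alternative chosen after seeing the data, 377 and 443 of 2808 tested, against 935 and 1169 in the edgeR fit. In those barcodes the share of the 4 classes differed by -0.13 percentage points (day 3 minus day 1), against -2.33 over all barcodes, and the intergenic share by 0.61, against -0.84. Between -2.71 and -1.95 points were seen with 1 day 3 library left out. In barcodes under 3500 gene counts the antisense row that tracked KRT3 had a log2 change of -0.17 (0.35 in all barcodes), and 2 genic rows that tracked genes without a symbol had 0.21 (transcript152.2, -0.65 in all) and -0.0906 (transcript43276.11, 0.62 in all). Of 135 named members that passed, 42 passed in DESeq2, 60 did not and 33 got no adjusted value; with no filter on low counts 46 passed and 89 did not. Without that filter the adjusted p was 0.0479 for the row that tracked FOS, 0.0519 for DUSP1, 0.0515 for MCL1, 0.0561 for ITGB4, 0.0929 for HNRNPH1, 0.129 for DSG3, 0.177 for KLF4 and 0.247 for EGR1. Of the tracked genes, 13 were higher in DESeq2, against 23. The replicate block called 6959 genes, against 7294, and 24 tracked genes higher and 35 lower. Leaving out 1 of the 6 samples at a time gave 18 to 24 higher and 31 to 34 lower. Correlations of same-numbered samples' deviations were 0.03, 0.05 and 0.02. They show no pairing by number but cannot exclude one, since counting error also lowers them. The test of shares of the host gene and the class shares in the other isoform tables were not run. The causes were not tested. Depth limits the 12328 members that were too rare to test.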
